A study of Homo sapiens with 10 samples.

Results

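LINC symbols with a number are placeholder names given mostly to long intergenic noncoding RNAs, and the expressed genes that carry one were followed here in human embryonic stem cells. Members were selected on the symbol, LINC followed only by digits, and on the measured level, a mean over all 10 libraries of at least 0.5 CPM (counts scaled to the library total). By this rule 202 genes qualified, of 893 LINC genes among the 32152 genes counted, and 691 LINC genes lay under 0.5 CPM. The threshold used the level in these libraries, so the levels below are a description. The 202 gene IDs carry 201 names, since LINC01238 labels a pair of IDs. GENCODE 29 classes 159 of them as lincRNA, 17 as processed transcripts, 11 as antisense, 10 as transcribed pseudogenes and 2 as protein-coding, with 3 in other lncRNA classes, and 80 share exon sequence with another gene.

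The cells were WAe009-A, a human embryonic stem cell line also known as H9, and polyadenylated RNA was sequenced from 5 knockout and 5 wild-type (WT) samples. Knockout cells carried KCNH2-/-, the loss of a potassium channel gene, and were grown in mTeSR Plus; WT cells were grown in TeSR-E8. Both grew on Matrigel, and genotype and medium cannot be told apart in this design. The titles and growth notes call the line a knockout while the genotype field says knockdown, no label says how many clones were used, and none says whether replicates were separate cultures, so each p-value rests on differences between samples that might be technical repeats.

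Long noncoding RNAs are transcribed, capped, spliced and often polyadenylated like messenger RNAs but carry no long open reading frame. Some act in the nucleus on chromatin or on a neighbouring gene, some act as scaffolds or host a microRNA, a few encode a short peptide, and for many no function is known. In pluripotent cells several are bound at their promoters by the pluripotency factors and drop when the cells differentiate.

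Promoter windows are shown for members that differed most between the groups. RefSeq windows of 300 bases (250 before and 50 after the start, GRCh38.p14) were matched to 128 of the 202 members. Of the 17 members with the largest changes defined below, 11 matched, and 9 of these had a RefSeq start within 500 bases of the GENCODE 29 start. The windows of the 4 of those 9 with the largest falls and of both with a rise are printed 5′ to 3′, with any match of 5 motifs on either strand in capitals. The TATA box was searched for as TATAAA. Matches of the GC box, a site of SP factors, were GGGCGG. The octamer bound by OCT4, a pluripotency factor, was ATGCAAAT. For AP-1, a stress-responsive factor, the letters were TGACTCA. The E-box was searched for as CACGTG. In order, they lie at chr5:142745350-142745649, plus strand, chr11:15552523-15552822, plus strand, chr12:62603385-62603684, minus strand, chr6:14285405-14285704, minus strand, chr5:25190607-25190906, minus strand and chr1:87129515-87129814, plus strand.
LINC01844: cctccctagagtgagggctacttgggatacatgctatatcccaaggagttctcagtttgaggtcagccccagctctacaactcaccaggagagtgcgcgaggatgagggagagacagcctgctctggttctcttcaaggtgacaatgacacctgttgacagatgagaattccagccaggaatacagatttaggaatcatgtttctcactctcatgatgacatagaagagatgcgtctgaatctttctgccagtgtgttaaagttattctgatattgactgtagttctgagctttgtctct
LINC02751: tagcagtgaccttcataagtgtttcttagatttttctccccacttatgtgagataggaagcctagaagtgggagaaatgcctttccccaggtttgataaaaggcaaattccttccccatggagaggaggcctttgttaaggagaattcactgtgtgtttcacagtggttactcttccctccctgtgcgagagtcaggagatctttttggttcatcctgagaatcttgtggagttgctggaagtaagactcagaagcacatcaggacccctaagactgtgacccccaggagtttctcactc
LINC01465: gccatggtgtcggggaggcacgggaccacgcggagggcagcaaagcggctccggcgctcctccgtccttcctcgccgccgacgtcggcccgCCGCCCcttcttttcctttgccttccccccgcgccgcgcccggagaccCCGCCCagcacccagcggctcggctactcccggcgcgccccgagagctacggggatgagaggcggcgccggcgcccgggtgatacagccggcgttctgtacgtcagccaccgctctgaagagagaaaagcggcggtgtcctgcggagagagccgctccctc
LINC01108: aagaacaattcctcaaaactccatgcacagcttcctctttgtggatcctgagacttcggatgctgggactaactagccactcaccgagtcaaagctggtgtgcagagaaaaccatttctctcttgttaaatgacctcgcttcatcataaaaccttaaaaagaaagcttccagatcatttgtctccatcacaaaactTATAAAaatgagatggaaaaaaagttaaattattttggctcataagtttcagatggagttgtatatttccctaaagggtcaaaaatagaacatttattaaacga
LINC02228: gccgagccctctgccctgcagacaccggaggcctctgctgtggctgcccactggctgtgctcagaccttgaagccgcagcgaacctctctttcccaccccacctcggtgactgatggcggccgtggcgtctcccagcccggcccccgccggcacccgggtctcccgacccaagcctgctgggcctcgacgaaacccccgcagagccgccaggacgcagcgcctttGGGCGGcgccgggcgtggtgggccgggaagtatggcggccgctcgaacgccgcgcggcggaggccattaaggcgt
LINC01140: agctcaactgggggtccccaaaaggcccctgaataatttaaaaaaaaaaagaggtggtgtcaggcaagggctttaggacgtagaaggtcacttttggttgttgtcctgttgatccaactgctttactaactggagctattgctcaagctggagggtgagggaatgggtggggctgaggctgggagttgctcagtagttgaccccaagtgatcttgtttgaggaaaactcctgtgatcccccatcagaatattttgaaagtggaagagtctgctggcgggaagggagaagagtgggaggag
LINC01108 holds a TATAAA match, LINC01465 and LINC02228 hold GC boxes, and none of the 5 motifs is in the windows of LINC01844, LINC02751 or LINC01140. No window held overlapping matches of different motifs. Over the 128 member windows, the GC box was in 65 (50.8%), against 45.0% of all 35116 RefSeq windows. TATAAA was in 13 (10.2%, against 11.5%) and the E-box in 8 (6.25%, against 7.26%). The AP-1 site was in 7 (5.47%, against 4.95%) and the octamer in 1 (0.781%, against 1.77%). The ratio of observed to expected CpG was over 0.6 in 60 member windows (46.9%) and in 48.8% of all windows.

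Libraries held 29788732 to 40587206 counts in knockout cells and 28615751 to 47319933 in WT cells, so that 3 counts, the limit that a count of 0 allows, are worth 0.0634 to 0.105 CPM (counting error only). KCNH2 itself averaged 12.2 ± 1.001 CPM in knockout cells and 15.5 ± 0.753 CPM in WT cells (SD, n = 5 each; log2 difference -0.35, SE 0.06, adjusted p = 6.48e-04), with 11.1 to 13.2 CPM in the knockout libraries and 14.6 to 16.4 CPM in the WT libraries. Its RNA was thus present in every knockout library. All 8 pluripotency markers were above 1 CPM, with a summed level of 5747 to 6185 CPM in knockout libraries and 4964 to 5248 CPM in WT libraries, and 4 of them were higher in knockout cells. Of the other marker lists, the sum of 5 trophoblast or amnion genes was 10.9 to 14.7 CPM in knockout libraries and 28.3 to 36.0 CPM in WT libraries, with TFAP2A at 0.0229 CPM. The sum of 3 measured endoderm genes was 0.356 to 0.695 CPM in knockout libraries and 2.43 to 5.21 CPM in WT libraries, with GATA6 at 0.0327 CPM. Primitive streak and mesoderm genes (1.39 to 1.86 CPM in knockout, 1.36 to 1.87 CPM in WT), neural genes (450.0 to 502 CPM in knockout, 475 to 497 CPM in WT) and 4 measured fibroblast genes (830.2 to 955 CPM in knockout, 950 to 1026 CPM in WT) lay closer together. Only 2 of the 4 neural genes reached 1 CPM, and PAX6 was at 0.0227 CPM. Lower in knockout cells by the test were 2 fibroblast, 1 neural, 2 trophoblast or amnion and 1 endoderm genes, and 0 streak and mesoderm genes. No gene of these lists was called higher. The part of these marker differences in the LINC results was not tested, and in bulk RNA fewer cells of a type and less RNA per cell cannot be told apart.

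Most members were scarce and a few were abundant. The mean level of the 202 members ran from 0.504 to 101.6 CPM, with a median of 1.79 CPM. Together they took 0.115, 0.116, 0.111, 0.112 and 0.113% of all counts in knockout libraries 1 to 5, against 0.142, 0.131, 0.127, 0.129 and 0.133% in WT libraries 1 to 5. Every WT share was above every knockout share (means 0.113 ± 0.00220% in knockout and 0.132 ± 0.00574% in WT, SD, n = 5 each). The 10 most abundant members made 43.8 to 46.2% of LINC counts in knockout libraries and 42.3 to 43.7% in WT libraries.

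At the threshold itself, the lowest members were LINC02139 at 0.504 CPM and LINC01164 at 0.506 CPM, and the highest genes left out were LINC02043 at 0.496 CPM and LINC02614 at 0.493 CPM. In 184 members both group means reached 0.5 CPM. In 2 only the knockout mean did, and both were called higher. In 16 only the WT mean did, and 10 of these were called lower. No member was at 0 counts in any library.

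LINC00678 (chr11:27617626-27634627, minus strand) was the most abundant member, by CPM and also per kilobase of exon (87.2 CPM per kb). It averaged 104 ± 6.97 CPM in knockout cells and 99.5 ± 7.06 CPM in WT cells (SD, n = 5 each), with a log2 difference of 0.06 (SE 0.06) and an adjusted p of 0.411 in the edgeR fit. LINC00599, whose transcripts contain the microRNA gene MIR124-1, followed with 78.2 ± 10.5 CPM in knockout cells and 84.1 ± 8.71 CPM in WT cells (adjusted p = 0.378). LINC00665, reported to encode a micropeptide in cancer cells, averaged 82.2 ± 2.72 CPM in knockout cells and 78.3 ± 1.35 CPM in WT cells (adjusted p = 0.057), and it passed the edgeR test when knockout 3 (adjusted p = 0.0481) or knockout 4 (0.036) was left out. With all libraries LINC00665 also passed when edgeR used DESeq2 size factors (adjusted p = 0.0324) and in DESeq2's Wald test (0.0217), and the authors' deposited table gives it an adjusted p of 0.0249.

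Among the other 7 of the 10 most abundant members, 3 fell, 2 rose and 2 did not pass. LINC01405 (chr12:110936585-110958208, plus strand), the second most abundant per kilobase (27.0 CPM per kb), had 43.0, 48.3, 51.9, 48.3 and 49.5 CPM in knockout libraries 1 to 5, against 36.4, 34.1, 32.0, 34.5 and 32.6 CPM in WT libraries 1 to 5. Every knockout library was above every WT library, with a log2 difference of 0.51 (SE 0.05) and an adjusted p of 1.32e-05. LINC01578, named CHASERR for its place beside the chromatin remodeller CHD2, which it restrains in mouse, was 57.1 ± 2.33 CPM in knockout cells and 52.7 ± 1.52 CPM in WT cells (log2 difference 0.12, adjusted p = 0.0152). CHD2 had 116, 116, 153, 147 and 130.2 CPM in knockout libraries 1 to 5, against 141, 139.9, 146, 137 and 135 CPM in WT libraries 1 to 5, and its groups overlapped.

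LINC02700 (chr11:94638045-94652884, plus strand) was the abundant member with the largest fall. Its exons overlap AP000943.1 on the same strand. Its levels were 24.3, 29.9, 59.9, 54.2 and 33.7 CPM in knockout libraries 1 to 5, against 94.3, 75.2, 73.1, 74.8 and 78.7 CPM in WT libraries 1 to 5. All knockout libraries were below all WT libraries but differed among themselves, knockout 1 being lowest and knockout 3 highest, and the log2 difference was -0.97 (SE 0.21, adjusted p = 0.00304). LINC02210, which shares exons with the read-through gene LINC02210-CRHR1, averaged 36.9 ± 0.707 CPM in knockout cells and 44.4 ± 1.36 CPM in WT cells (-0.27, adjusted p = 2.92e-05). LINC00662 fell by 0.19 on the log2 scale (adjusted p = 0.0193). LINC01278 (0.13, adjusted p = 0.192) and LINC01089, which shares exons with the GTPase gene RHOF (-0.15, adjusted p = 0.157), did not pass.

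Across all members the called changes were more often falls than rises. With edgeR (quasi-likelihood, Benjamini-Hochberg adjusted p under 0.05 over 19163 genes), 62 of the 202 members (30.7%) were lower in knockout cells, beside a background of 24.1% of all tested genes. Higher in knockout cells were 23 members (11.4%), beside 21.9% of all tested genes, and 117 did not pass. In either direction this is 42.1% of the members, beside 46.0% of all tested genes. The called members include 10 lower and 2 higher whose mean reached 0.5 CPM only in the group where they were high. The median log2 difference was -0.15 over the members and 0.002 over all tested genes. Without WT 3 the count of higher members was 14, where 20.2% of all tested genes were higher. It was also 14, with 50 lower, without knockout 3, WT 2 and WT 3 together. In that fit 18.5% of all tested genes were higher and 18.5% lower.

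Other noncoding genes of like level also had more falls than rises. Of 1569 other lncRNA genes of at least 0.5 mean CPM, 398 (25.4%) were lower and 193 (12.3%) higher, with a median log2 difference of -0.09. Of 14124 protein-coding genes of that level, 26.9% were lower and 26.7% higher, with a median of -0.001. All of these genes were tested in 1 fit, and the difference between the gene groups was not tested.

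**Figure D1:**
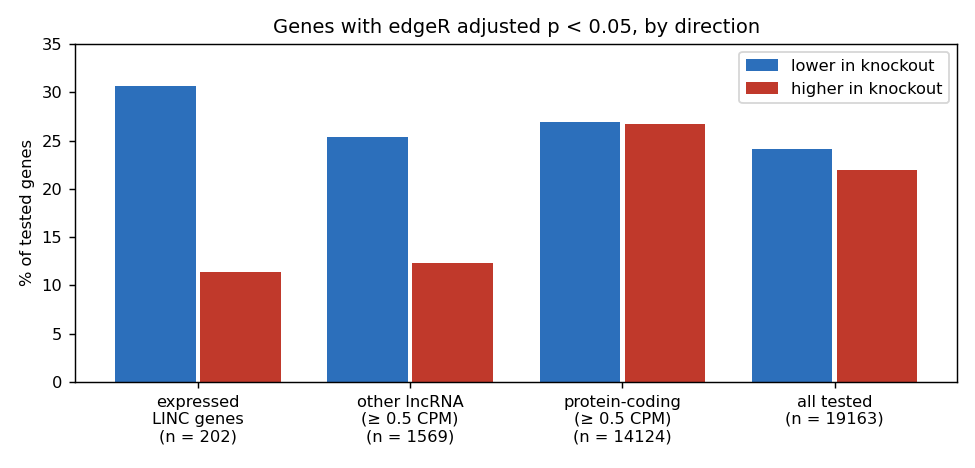
Percentage of tested genes called lower and higher in knockout cells, for the expressed LINC genes, other lncRNA genes and protein-coding genes of at least 0.5 mean CPM, and all tested genes. Bars show 30.7% lower and 11.4% higher for LINC genes, 25.4% and 12.3% for other lncRNA genes, and near-equal bars for protein-coding genes.

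Of the 202 members, 47 had all knockout libraries below all WT libraries, beside 3393 of 19163 tested genes (17.7%). All knockout libraries were above all WT libraries in 14 of the 202, beside 3120 of 19163 tested genes (16.3%). In either direction the groups did not overlap for 34.0% of all tested genes. A fall over 1 on the log2 scale was called in 12 of the 202 members, beside 371 of 19163 tested genes (1.94%). A rise over 1 was called in 5, beside 253 of 19163 (1.32%). By level, these falls were 3 of 56 members at 0.5 to 1 CPM, beside 79 of 1678 tested genes. They were 5 of 98 at 1 to 5 CPM, beside 134 of 3609, and 4 of 48 above, beside 70 of 12212. Such rises were 2, 2 and 1 members in the same order, beside 43, 73 and 91 tested genes. Of the falls over 1, LINC02693, LINC02301, LINC02701, LINC01465 and LINC00954 reached a mean of 0.5 CPM only in WT cells. Of the rises over 1, LINC01164 and LINC02228 reached it only in knockout cells. The 122 members with no exon overlapping another gene had 11 higher and 42 lower, and the 80 with such overlap had 12 higher and 20 lower. No source used here states whether counting was stranded, so reads of overlapping genes cannot be told apart. Of the 56 members of 0.5 to 1 CPM, 12 were lower (21.4%) and 5 higher (8.93%), beside 16.0% lower and 7.51% higher over all tested genes of that level. Of the 98 members of 1 to 5 CPM, 29 were lower (29.6%) and 13 higher (13.3%), beside 25.8% and 11.4% of all tested genes. Of the 48 members of 5 CPM or more, 21 were lower (43.8%) and 5 higher (10.4%), beside 26.4% and 29.3% of all tested genes. Across members the log2 difference had a Spearman correlation of -0.08 with exonic length (n = 202 genes, which share the same libraries), against -0.28 over 18966 tested genes.

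**Figure D2:**
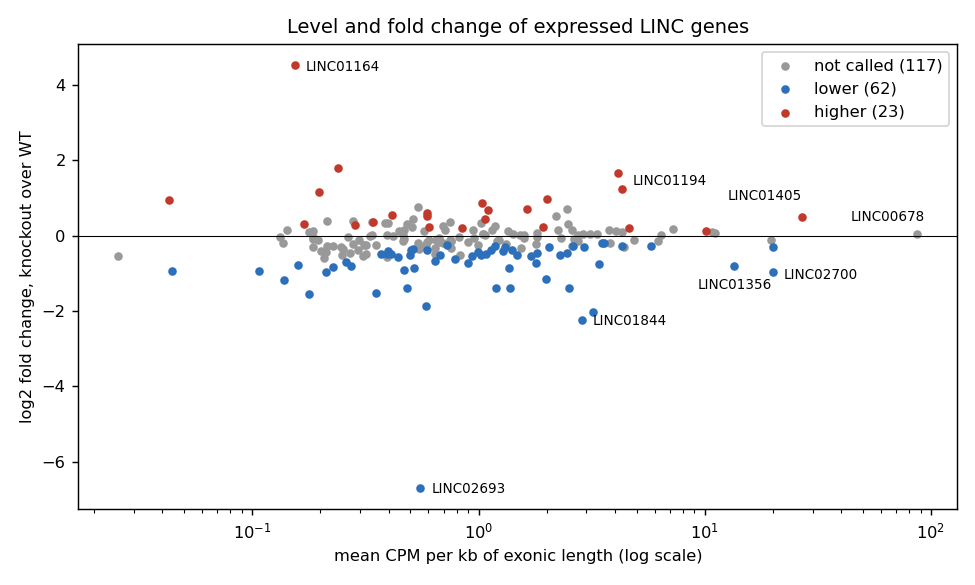
Mean level of each expressed LINC gene over the 10 libraries, in CPM per kilobase of exonic length on a log axis, against its log2 difference (knockout over WT), coloured by call. LINC00678 stands at the right end at 87.2 CPM per kb without a call, and LINC02693 (-6.69) and LINC01164 (4.53) lie far from the rest.

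**Figure D3:**
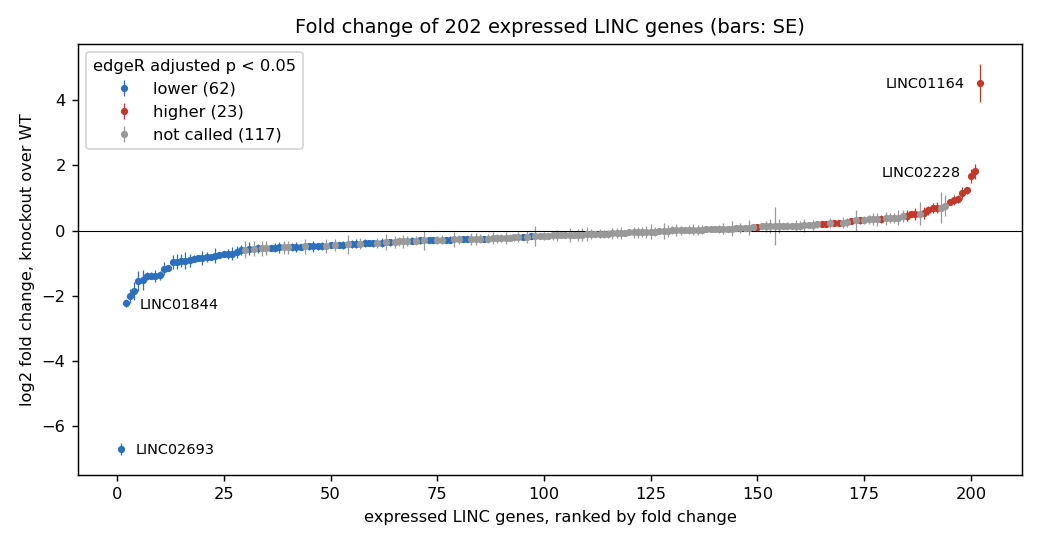
Log2 difference (knockout over WT) of all 202 expressed LINC genes in rank order, with bars of 1 SE and the called genes coloured. Called falls number 62 and called rises 23, from LINC02693 at -6.69 to LINC01164 at 4.53.

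LINC00458 and LINC01108, members known from human pluripotent cells, both fell. They are described as lncRNAs of human embryonic stem cells and lie at chr13:54115783-54132866, minus strand, and chr6:14280127-14285454, minus strand. LINC00458 had 2.25, 2.47, 1.11, 1.65 and 1.85 CPM in knockout libraries 1 to 5, against 5.41, 4.36, 4.13, 5.41 and 5.06 CPM in WT libraries 1 to 5, with a log2 difference of -1.38 (SE 0.18) and an adjusted p of 8.46e-05. LINC01108 had 1.11, 1.06, 0.836, 0.866 and 1.05 CPM in the knockout libraries, against 3.11, 2.44, 2.38, 2.55 and 2.38 CPM in the WT libraries, with a log2 difference of -1.39 (SE 0.13) and an adjusted p of 6.10e-06. Neither gene overlapped between the groups, and its WT 1 level was the highest or tied for the highest of its group. LNCPRESS1, a lncRNA of human embryonic stem cells that p53 represses, was 7.88 ± 0.556 CPM in knockout cells and 16.9 ± 1.06 CPM in WT cells (log2 difference -1.10, adjusted p = 1.62e-07). In contrast to these falls, ESRG, an abundant lncRNA of the same cells, was 373 ± 32.8 CPM in knockout cells and 400.2 ± 19.2 CPM in WT cells (log2 difference -0.10, adjusted p = 0.162). MIR302CHG rose, at 289 ± 42.2 CPM in knockout cells and 234 ± 26.4 CPM in WT cells (0.31, adjusted p = 0.0278). TUNAR (-0.03, adjusted p = 0.68) and LINC-ROR (-0.44, 0.31) did not pass, so lncRNAs of pluripotent cells had no common direction.

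Of 26 LINC genes listed for a known role or product, 13 were expressed members, and 6 of them are described above. LINC00467, reported to encode a micropeptide, rose, at 3.19 ± 0.496 CPM in knockout cells and 2.08 ± 0.222 CPM in WT cells (0.61, SE 0.12, adjusted p = 0.00167). LINC00632, the host transcript of the circular RNA that buffers miR-7, had a log2 difference of 0.31 (adjusted p = 0.0325), and no longer passed without knockout 3, knockout 5, WT 2, WT 3 or WT 5 in turn (0.0577 to 0.0812), or without knockout 3, WT 2 and WT 3 together (0.266). LINC00342 fell by 0.39 on the log2 scale (adjusted p = 0.0121). LINC00511 (-0.54, adjusted p = 0.0626), LINC00205 (-0.14, 0.0547), LINC00339 (0.16, 0.0728) and LINC00963 (0.09, 0.777) did not pass. LINC00511 passed without WT 5 (adjusted p = 0.0345), LINC00205 without knockout 1 (0.0242), and LINC00339 without knockout 1 (0.0416) or WT 1 (0.0126). With all libraries LINC00205 passed in limma voom (adjusted p = 0.0399) and when only genes of at least 1 CPM in 5 libraries were tested (0.043).

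LINC02693 (chr17:21428381-21574517, minus strand) showed the largest difference of all members. It had 0.134, 0.334, 0.111, 0.102 and 0.0854 CPM in knockout libraries 1 to 5, against 16.9, 16.3, 15.9, 15.2 and 16.7 CPM in WT libraries 1 to 5, which is 27 counts in all knockout libraries and 3193 in all WT libraries. The WT libraries lay close together, and the knockout libraries were near the limit of detection. The log2 difference of -6.69 (SE 0.19, adjusted p = 4.73e-10) thus rests on few knockout counts. GENCODE 29 gives this gene as protein-coding, and its exons overlap AC233702.6 and, on the other strand, AC233702.7.

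The next falls were in genes for which no role is given here. LINC01844 (chr5:142745600-142760998, plus strand) had 2.85, 2.50, 1.73, 1.88 and 2.31 CPM in the knockout libraries, against 9.78, 11.0, 9.89, 11.1 and 10.8 CPM in the WT libraries, a log2 difference of -2.22 (SE 0.12) and an adjusted p of 1.08e-07. LINC02751 (chr11:15552855-15591098, plus strand) had 0.873, 1.08, 0.613, 0.433 and 0.655 CPM in the knockout libraries, against 3.39, 2.81, 2.33, 3.24 and 2.96 CPM in the WT libraries, a log2 difference of -2.01 (SE 0.21) and an adjusted p of 1.66e-05. Both have printed windows without any of the 5 motifs, and both were well separated between the groups. LINC00664 (chr19:21483374-21503238, plus strand), which shares exons with the zinc finger gene ZNF429, had 7.39, 7.28, 7.22, 7.20 and 7.26 CPM in the knockout libraries, against 17.1, 15.0, 15.9, 15.4 and 16.9 CPM in the WT libraries. The knockout libraries of LINC00664 lay close together and below every WT library, with a log2 difference of -1.14 (SE 0.05) and an adjusted p of 1.54e-08.

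The other 6 members that fell by over 1 on the log2 scale without overlap ranged from LINC02301 (-1.86, adjusted p = 0.000227) to LINC00954 (-1.17, adjusted p = 0.000486). Between them lay LINC02701 (-1.54), LINC01465 (-1.51), LINC01355 (-1.39) and LINC01780 (-1.37). Knockout means were under 0.5 CPM for LINC02301 (0.441 CPM), LINC02701 (0.295), LINC01465 (0.362), LINC00954 (0.406) and, of the falls above, LINC02693 (0.153). These are members through their WT level alone. LINC01465 is a single-exon transcript antisense to the microRNA gene MIRLET7I, whose reads cannot be told apart from it without strand. Its level was 0.772 CPM in knockout 1 and 0.195 to 0.334 CPM in the other knockout libraries.

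**Figure D4:**
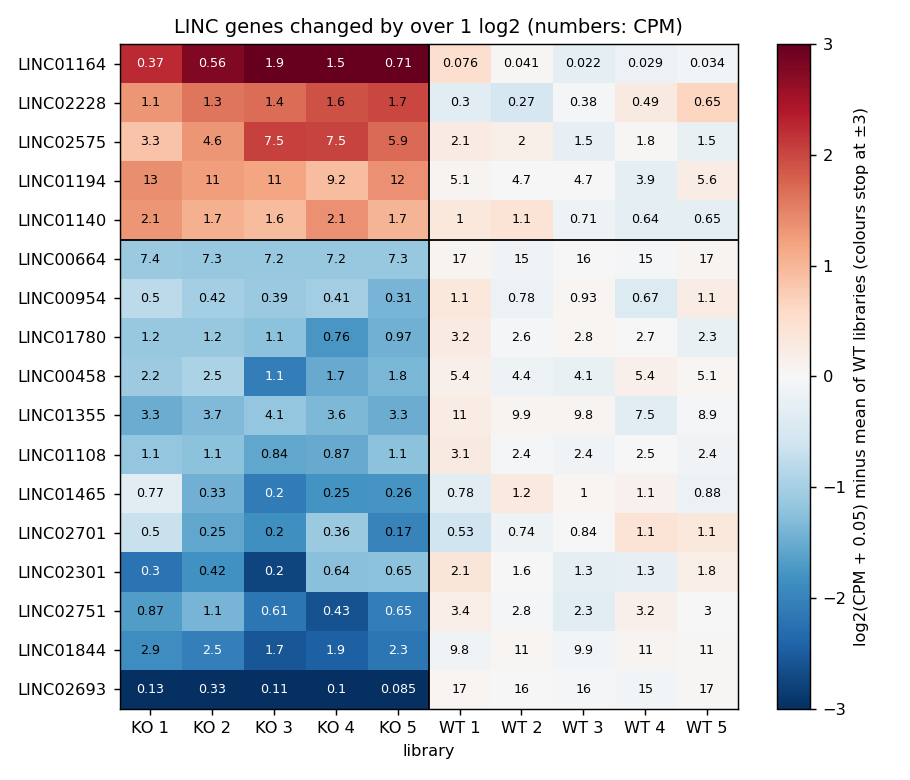
Level of the 17 LINC genes with the largest called changes in each library, as printed CPM and as a colour, log2(CPM + 0.05) minus the gene's mean over the WT libraries, with knockout (KO) columns left of WT columns. The 12 falls are below the WT mean in all 5 knockout columns and the 5 rises are above it.

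Of the 5 members that rose by over 1, LINC01164 (chr10:131772398-131790199, minus strand) had the largest change from the lowest level. It had 0.369, 0.556, 1.90, 1.48 and 0.711 CPM in knockout libraries 1 to 5, against 0.0758, 0.0413, 0.0222, 0.0289 and 0.0340 CPM in WT libraries 1 to 5, which is 182 counts in all knockout libraries and 8 in all WT libraries. The knockout libraries spread over a wide range, with knockout 3 highest and knockout 1 lowest, and the log2 difference was 4.53 (SE 0.59, adjusted p = 8.07e-05). Since its mean sits just above the threshold, it is a member through its knockout level alone. LINC02228, described next, is the other such member, with a WT mean of 0.417 CPM.

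LINC02575 (chr21:44485577-44490288, plus strand) had 3.29, 4.56, 7.53, 7.51 and 5.92 CPM in the knockout libraries, against 2.15, 2.02, 1.51, 1.82 and 1.53 CPM in the WT libraries, with a log2 difference of 1.67 (SE 0.22) and an adjusted p of 8.58e-05. LINC02228 (chr5:25087450-25190956, minus strand) had 1.07, 1.31, 1.39, 1.63 and 1.74 CPM in the knockout libraries, against 0.303, 0.268, 0.378, 0.492 and 0.646 CPM in the WT libraries, with a log2 difference of 1.81 (SE 0.23) and an adjusted p of 7.87e-05. Its exons overlap LINC02211 on the other strand, and LINC02211 had a log2 difference of 0.31 (adjusted p = 0.466). LINC01194 (chr5:12574857-12804363, plus strand), the most abundant of the 5, had 12.6, 11.5, 11.0, 9.16 and 12.5 CPM in the knockout libraries, against 5.06, 4.73, 4.71, 3.91 and 5.61 CPM in the WT libraries, with a log2 difference of 1.24 (SE 0.11) and an adjusted p of 4.30e-06. LINC01140 (chr1:87129765-87169198, plus strand) had 2.08, 1.72, 1.59, 2.14 and 1.68 CPM in the knockout libraries, against 1.01, 1.07, 0.711, 0.636 and 0.646 CPM in the WT libraries, with a log2 difference of 1.16 (SE 0.18) and an adjusted p of 0.000251. None of the 5 overlapped between the groups.

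Other called members of smaller change, chosen after their values were seen, are given next. LINC01356 was 18.0 ± 1.71 CPM in knockout cells and 31.3 ± 2.92 CPM in WT cells (-0.80, SE 0.08, adjusted p = 8.63e-06). LINC01139 fell by 0.75 on the log2 scale (adjusted p = 2.82e-06). On the X chromosome, LINC00630 rose, at 5.48 ± 0.249 CPM in knockout cells and 2.997 ± 0.155 CPM in WT cells (0.87, SE 0.07, adjusted p = 2.47e-06), and LINC00605 on chromosome 14 rose by 0.97 (adjusted p = 3.10e-05). LINC00472, which contains MIR30A and MIR30C2, was 3.40 ± 0.565 CPM in knockout cells and 4.40 ± 0.592 CPM in WT cells (-0.37, adjusted p = 0.0351). The call of LINC00472 was lost without knockout 1, 2 or 5 or WT 1, 3 or 5 in turn (0.0621 to 0.0854).

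Members close to each other on a chromosome were called the same way in 1 place and in opposite directions in another, both chosen after their values were seen. At the end of the short arm of chromosome 1, LINC01128 (-0.25, adjusted p = 0.00811), LINC00115 (-0.72, 0.00333) and LINC02593 (-0.95, 0.00566) all fell, and LINC01409 beside them was -0.40 (0.0579; 0.012 without WT 2). LINC00115 and LINC01128 share exon sequence on opposite strands. On chromosome 18, LINC00526 (0.20, 0.0239) and LINC00667 (-0.18, 0.00331) start 772 bases apart on opposite strands, share exons and were called in opposite directions. The call of LINC00526 was lost without knockout 5 (0.0535), WT 2 (0.0618) or WT 3 (0.0517), and without knockout 3, WT 2 and WT 3 together (0.215).

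Protein-coding neighbours showed no common direction with the members. For 120 members with a tested protein-coding gene starting within 100 kb, the log2 differences of member and nearest gene had a Spearman correlation of -0.03, and 65 pairs (54.2%) had the same sign. In 24 pairs both genes were called, and 12 of them (50%) moved the same way. Over 299 such pairs of other lncRNA genes this share was 63.5%, and over 3052 pairs of protein-coding genes it was 61.7%. The pairs differ in distance, so these shares are not of like pairs. The median distance over all pairs, called or not, was 25937 bases for members. It was 2092 bases for other lncRNA genes and 18135 bases for protein-coding genes. All pairs share the same libraries, and the difference between these shares was not tested.

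Among the neighbours of the members with the largest changes, both directions were seen. ARHGAP26, which starts 24777 bases from LINC01844 on the same strand, was 26.8 ± 1.60 CPM in knockout cells and 32.5 ± 1.32 CPM in WT cells (log2 difference -0.28, adjusted p = 4.32e-04). ZNF436 near LINC01355 fell by 0.59 on the log2 scale (adjusted p = 6.98e-04), while HNRNPR was -0.05 (0.38). LRRC3 fell, at 7.73 ± 0.425 CPM in knockout cells and 11.2 ± 0.931 CPM in WT cells (-0.54, adjusted p = 5.61e-05), beside LINC02575, which rose. MRPL21, a mitochondrial ribosomal protein gene near LINC02701, rose by 0.28 (adjusted p = 4.30e-04), and CPT1A was 0.26 (0.0648). ZNF429, which overlaps LINC00664, fell by 0.29 (adjusted p = 0.0132), and ZNF493 beside it by 0.10 (0.0325). TTC32 near LINC00954 was -0.03 (0.843).

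A list of 48 lncRNA genes with names of their own was read from the same fit. Of the 45 tested, 14 (31.1%) were higher and 12 (26.7%) lower in knockout cells, with a median log2 difference of -0.03. Over all tested genes the shares were 21.9% higher and 24.1% lower. Over all tested genes of 5 CPM or more they were 29.3% and 26.4%, near those of the list, whose median level was 37.4 CPM. Of the 11 tested genes of the list with an SNHG (small nucleolar RNA host gene) name, 6 were higher, 1 was lower and 4 did not pass. The lower one was SNHG14, the most abundant, at 895 ± 34.6 CPM in knockout cells and 948 ± 14.1 CPM in WT cells (-0.08, adjusted p = 0.0321). SNHG3, SNHG8, SNHG12 and SNHG15 did not pass. Genes that rose included ZFAS1 at 113 ± 6.05 CPM in knockout cells and 70.2 ± 3.67 CPM in WT cells (0.69, adjusted p = 4.59e-07), GAS5 at 405 ± 19.8 CPM in knockout cells and 310.0 ± 15.4 CPM in WT cells (0.39, 2.13e-05) and SNHG1 at 269 ± 4.69 CPM in knockout cells and 206 ± 8.16 CPM in WT cells (0.38, 1.77e-06). The nuclear RNA NEAT1, which builds paraspeckles, was 23.9 ± 5.16 CPM in knockout cells and 12.7 ± 1.06 CPM in WT cells (0.91, adjusted p = 1.54e-04). H19, an imprinted growth-related RNA, was 0.730 ± 0.162 CPM in knockout cells and 3.46 ± 0.473 CPM in WT cells (-2.25, adjusted p = 9.62e-07). THUMPD3-AS1 (-0.66), FTX (-0.55) and TUG1 (-0.16) were also lower.

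Spread within a group varied widely between members. Over 146 members of at least 1 mean CPM, the median pooled SD of log2 CPM within groups was 0.193. LINC01709 had the highest SD, 1.23, with 2.32, 1.36, 0.195, 1.37 and 0.911 CPM in the knockout libraries, against 1.26, 0.516, 0.222, 2.02 and 1.70 CPM in the WT libraries. LINC02637 (0.979), LINC00987 (0.763), LINC02211 (0.620) and LINC02301 (0.498) followed. All 5 were lowest in knockout 3 among the knockout libraries and in WT 3 among the WT libraries.

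For LINC00987 this meant 8.83, 8.65, 2.20, 7.89 and 7.31 CPM in the knockout libraries, against 5.92, 3.41, 2.25, 7.06 and 5.85 CPM in the WT libraries. Of the 5, LINC01709, LINC02637 and LINC00987 have exons overlapping pseudogenes (RPSAP19; RHEBP1 and SHLD2P1; A2MP1 and PTMAP4), and LINC02301 has no exon overlap. Knockout 3 was the lowest knockout library for 51 of the 146 members, and WT 3 the lowest WT library for 43. In 21 of the 146 members replicate 3 was lowest in both groups. Whether 21 is more than these counts give without a link was not tested. WT 1 was the highest WT library for 74 of 146, with a median deviation of 0.14 on the log2 scale from its group. LINC00987 did not pass in the fit of all libraries without a block (0.52, adjusted p = 0.27) and passed without knockout 3 (0.0375). With replicate number as a block in the edgeR fit, LINC00987 (adjusted p = 0.0396) and LINC02637 (0.0183) passed with all libraries.

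**Figure D5:**
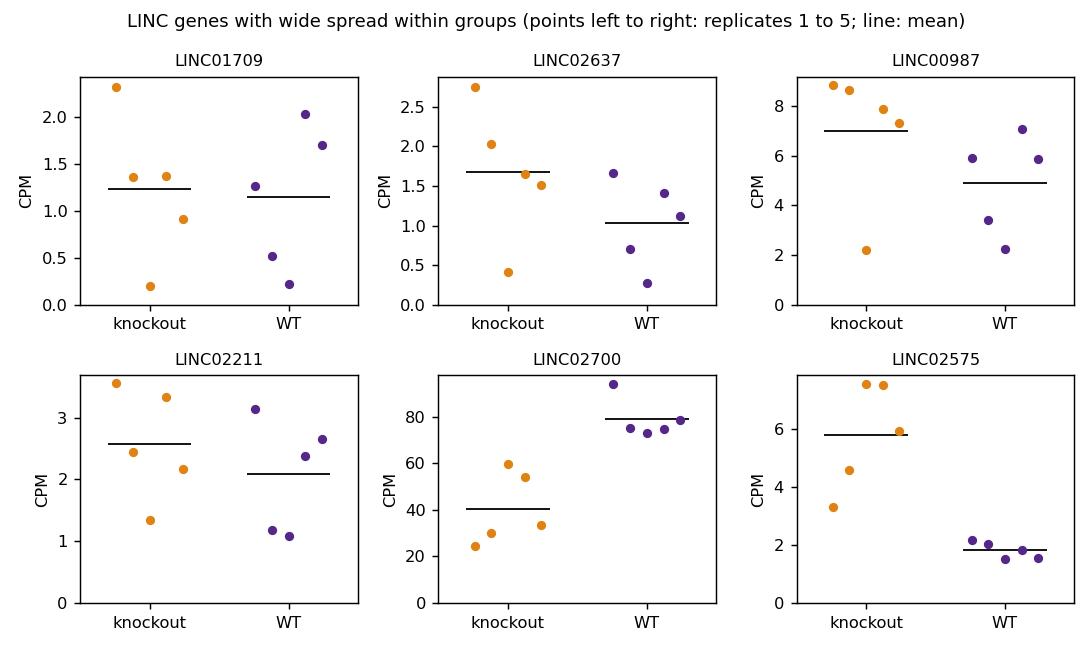
Level in CPM of 6 LINC genes with wide spread within groups, with knockout points left of WT points, replicates 1 to 5 in order from left to right, and a line at the group mean. Replicate 3 is lowest in both groups for LINC01709, LINC02637, LINC00987 and LINC02211, while LINC02700 and LINC02575 are highest in knockout 3 among the knockout libraries and separate the groups.

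In the authors' deposited table all 202 members had an adjusted p, with 20 higher and 56 lower at 0.05, beside 18.4% higher and 18.0% lower over the 23415 genes with an adjusted p in that table. Both the authors' deposited table and edgeR called 75 members in the same direction, 10 were called by edgeR only and 1 by the authors' deposited table only. For every member called with a log2 change over 1 the authors' deposited table has a value smaller in size. LINC02701 has -0.84 there, against -1.54 by edgeR, and LINC00664 has -1.09, against -1.14. For LINC01164 the authors' deposited table has 1.29 on the log2 scale, against 4.53 by edgeR, and for LINC02693 it has -5.09, against -6.69.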

How the data were processed

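Polyadenylated RNA of 10 libraries was counted per gene; the counts were deposited by the authors as raw whole numbers, with no normalization. The authors' deposited table of their own comparison gives log2 fold changes, and its p-values are adjusted p-values; per the submitters' processing notes the build was hg38 and DESeq2 and R 3.6.3 were used. Neither an aligner nor a counting tool is named in the labels.

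From the counts, CPM was computed per library total for membership, and with TMM scaling for the levels printed. Genes passing filterByExpr (19163) were tested with edgeR 4.0.16 (R 4.3.3), quasi-likelihood, knockout against WT, with Benjamini-Hochberg adjustment over all of them; the procedure was tested on simulated data. DESeq2 1.42.0 and limma 3.58.1 voom were alternatives. Replicates of a group differed by more than counting noise (chi-square per degree of freedom 3.79 to 29.0). Positions and overlaps come from GENCODE 29 (GRCh38). Sequences are RefSeq's.

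Members and lists were chosen with earlier results of these data known. Named genes were the 10 most abundant members, up to 12 called falls and 12 called rises over 1 on the log2 scale with no overlap between groups, the members among 26 listed LINC genes, the genes beside the threshold and the nearest 2 coding genes of the largest changes; 16 further members were named after their values were seen. Marker genes SOX17 and LUM were not analysed here.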

Additional observations from a re-analysis of the deposited data

Results flagged for a closer look

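Within groups of 5 libraries, 8 of 100 groups looked at had a highest or lowest library that stood apart by Dixon's ratio, where chance gives about 1 in 20. WT 1 was the high library in 4 of them. LINC02700 was 94.3 CPM in WT 1, against 73.1 to 78.7 CPM in the other WT libraries. LINC01089 was 31.3 CPM in WT 1 (others 24.8 to 26.6 CPM), LINC01139 was 28.4 CPM (24.4 to 25.3 CPM) and LINC01108 was 3.11 CPM (2.38 to 2.55 CPM). Among the knockout libraries, LINC02693 was 0.334 CPM in knockout 2 (others 0.0854 to 0.134 CPM), LINC01465 was 0.772 CPM in knockout 1 (others 0.195 to 0.334 CPM) and LINC00987 was 2.20 CPM in knockout 3 (others 7.31 to 8.83 CPM). LINC01128 was 7.78 CPM in WT 3 (others 7.31 to 7.43 CPM).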

How the results depend on the processing

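The count of 62 lower members stayed within 1.5 times under every alternative run. It was 61 with DESeq2 size factors, 58 with DESeq2's Wald test and 65 with limma voom. Of all tested genes, 22.9, 22.3 and 24.7% were lower in these runs. The count was 56 without a filter on low counts, where 13.7% of 32152 genes were lower. With 1 library left out it was 55 to 65, where 21.5 to 23.3% of all tested genes were lower. The count of 23 higher members was 14 without knockout 3, WT 2 and WT 3, where 18.5% of all tested genes were higher. It was 11 when only the 122 members with no exon overlap were counted (fewer genes). With 1 library left out it was 14 to 26, where 19.9 to 23.4% of all tested genes were higher. It was lowest without WT 3, where that share was 20.2%. The cause of the low counts without WT 3 and without the 3 libraries together was not tested. Same-numbered libraries correlated at -0.157 to 0.698, over 0.1 in 4 of 5 pairs and best with each other in 1. The numbers were therefore not taken as pairs. With the replicate block the counts were 22 higher and 60 lower, beside 22.2% and 22.4% of all tested genes. Of 843 values of 50 named members over 17 settings, 800 kept direction and call, 20 lost the call, 17 gained it and 6 changed sign. LINC00963 changed sign without knockout 3 (-0.16) and without the 3 libraries together (-0.13). LINC01709 changed sign without knockout 1 (-0.20), WT 2 (-0.07), WT 3 (-0.15) and the 3 libraries (-0.17); leaving out 1 library at a time put LINC00963 between -0.16 and 0.23 and LINC01709 between -0.20 and 0.45. None of these values passed the test. Without the 3 libraries LINC00342, LINC00526, LINC00632, LINC01128 and LINC01578 lost their calls (adjusted p 0.0579, 0.215, 0.266, 0.0957 and 0.0587), and LINC00987 and LINC01409 gained one (0.0101 and 0.0288). Among the named members the replicate block added the calls of LINC00205, LINC00987 and LINC02637 (adjusted p 0.0495, 0.0396 and 0.0183). Members near 0.5 CPM rest on few counts, and how far their fold changes depend on the prior count was not tested.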

Other observations

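Knockout libraries differed among themselves in an order that 10 of the 202 members followed (4.95%), from low to high 1, 2, 5, 4, 3, and 4.77% of all tested genes had it too, a share near that of the members. The 10 include LINC02700, LINC02575 and LINC01164. CDKN1A, a cell cycle inhibitor induced by p53, had 26.2, 38.4, 101, 85.3 and 59.7 CPM in knockout libraries 1 to 5, against 19.6, 15.3, 17.6, 12.8 and 17.3 CPM in WT libraries 1 to 5. GDF15, a stress-induced cytokine, had 18.7, 27.9, 189, 111 and 66.2 CPM in knockout libraries 1 to 5, against 10.8, 7.35, 9.40, 5.76 and 7.55 CPM in WT libraries 1 to 5. Both genes were chosen after their values were seen.

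By chromosome, 5 of the 6 members on chromosome 18 were lower in knockout cells and the other was higher, where 32.3% of all tested genes of that chromosome were lower. On chromosome 19, 2 of 11 members were lower and 0 higher, where 16.0% of tested genes were lower and 32.4% higher. Chromosome 1 held the most members, 31, with 10 lower and 4 higher, where 25.3% of tested genes were lower and 20.9% higher.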
